A study of Drosophila melanogaster with 136 samples.

Results

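The mRNAs of the nuclear-encoded subunits of oxidative phosphorylation were measured in Drosophila S2 cells and staged embryos. The 84 genes are those whose symbol starts with ND-, UQCR-, COX or ATPsyn, or is SdhA, SdhB, SdhC or SdhD, matched by FlyBase identifier among the 17477 genes of every mRNA table. They comprise 40 genes of complex I (ND-), the 4 Sdh genes of complex II, 9 of complex III (UQCR-), 16 of complex IV (COX) and 15 of complex V (ATPsyn). By symbol, 63 form a core class and 21 are classed as paralogs. Paralog symbols end in L, or in L and a digit, as COX7AL or ND-51L1, while ND-MNLL is counted as core. Some, as COX6AL, have no gene of the symbol without the L among the 84. In all, 70 of the 84 passed the filter on low counts in at least 1 of the 6 tables and 61, all of them core, passed in every table. The 2 core genes that never passed were ND-B8, at 0.258 CPM or less, and ND-MNLL, listed at 0 throughout. Only 9 of the 21 paralogs passed in any table.

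Oxidative phosphorylation takes place in the inner mitochondrial membrane. Complex I oxidises NADH and complex II (succinate dehydrogenase) oxidises succinate, both passing electrons to ubiquinone. Complex III hands them to cytochrome c and complex IV to oxygen. Complexes I, III and IV pump protons, and complex V (ATP synthase) uses the gradient to make ATP. Most subunits are encoded in the nucleus and a few in mitochondrial DNA, while complex II is wholly nuclear. In flies, eggs receive mitochondria and much mRNA from the mother, and the embryo later builds muscle rich in mitochondria.

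The study asks how transcripts direct the degradation of microRNAs, which requires Dora, the fly ortholog of the mammalian ubiquitin ligase receptor ZSWIM8. Of its 136 samples, the 68 poly(A) RNA libraries in 6 tables are used here. S2 is a hemocyte-like Drosophila cell line, and each S2 library came from 1 clone. The RNAi table holds dora S2 cells given dsRNA against Ago1, dora cells given dsRNA against GFP, WT cells given Ago1 dsRNA and WT cells given GFP dsRNA, each as clones 1 to 3. Ago1 encodes AGO1, the Argonaute protein that carries microRNAs, and GFP has no fly target. The dsRNA, 2 µg a well, was transfected a first time and again 3 days later, and cells were harvested 4 days after that. The S2 clone table holds 3 dora and 3 WT clones without RNAi. A further table holds 2 libraries each of lines labelled ago1, h, kah, wgn and zfh1, after transcripts that trigger microRNA degradation, and 2 WT libraries. The embryo tables hold dora[A] embryos, dora[B] embryos and embryos labelled as CR43432 mutants (CR43432 embryos below), each beside its own WT embryos. Ages were 8-12, 12-16 and 16-20 h, with 2 libraries per genotype and time. CR43432 embryos and their WT have a single library each at 16-20 h, and WT embryos of that table were also taken at 0-2 and 2-4 h. What dora[A] and dora[B] change in the gene is not given in the sources used here.

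The libraries held 8.96 M to 35.5 M counted reads. Levels are CPM, read counts scaled to a common library size with TMM factors, which allow for differences in library composition. They are compared only between libraries of 1 gene or 1 fixed set of genes, because transcript lengths were not used. AGO1 was at 204, 198 and 205 CPM in dora clones under Ago1 RNAi, against 478, 436 and 438 under GFP RNAi. It was at 218, 245 and 228 CPM in WT clones under Ago1 RNAi, against 744, 491 and 573 under GFP RNAi. The Dora transcript stood at 117, 132 and 104 CPM in dora clones, against 129, 131 and 122 CPM in WT clones, and under GFP RNAi at 83.5, 111 and 84.8 CPM in dora clones, against 134, 136 and 138 in WT clones. The transcript is thus still present under the dora label. The 13 protein-coding genes of mitochondrial DNA were listed at 0 in all 68 libraries, so the mitochondrially encoded subunits are outside these measurements. The spans of 46 of the 84 genes overlap another gene in the dm6 annotation. The strand setting of the counting is not given in the sources used here, so reads of such pairs cannot be told apart.

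Ago1 knockdown lowered most subunit mRNAs in both genotypes. In dora clones 52 of the 64 genes tested were lower and 1 was higher under Ago1 RNAi than under GFP RNAi, and in WT clones 49 were lower and 0 higher (edgeR quasi-likelihood test, adjusted p under 0.05 over all 7861 genes tested). All 49 were also lower in the dora clones. With the clone, which the 2 libraries of a pair share, as a replicate block, 61 were lower and 1 higher in each genotype (edgeR). The exceptions were the paralogs ND-51L1 and UQCR-11L. Of all genes tested, 26.7% were lower and 24.6% higher in dora clones, and 28.4% were lower and 25.6% higher in WT clones. With the block these shares were 34.4% and 32.5% in dora clones, and 36.1% and 33.7% in WT clones. The median log2 fold change of the subunits was -0.73 in dora and -0.67 in WT clones, against -0.01 and -0.02 over all genes. In 56 of the 64 every Ago1 library of the dora clones was below every GFP library (31.2% of all genes), and in 45 the same held in WT clones (31% of all genes). Differences in the effect between dora and WT clones were called for 0 of the 64 by edgeR (0.0763% of all genes), and 0 passed an unadjusted p under 0.05.

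Complex I contributed 33 of the tested genes, of which 29 were lower in dora and 28 in WT clones. ND-13B, an accessory subunit at 3L:10693184-10694108 (dm6), was at 16.6, 16.2 and 22.2 CPM under Ago1 RNAi in dora clones, against 32.7, 43.9 and 52.6 under GFP RNAi. In WT clones it was at 12.8, 16.6 and 14.6 CPM under Ago1 RNAi and 30.8, 32.5 and 36.9 under GFP RNAi. The ranges did not overlap in either genotype, and the log2 fold change was -1.23 ± 0.18 (SE; edgeR adjusted p = 0.000199) in dora and -1.19 ± 0.18 (adjusted p = 0.000232) in WT clones. ND-24, a core subunit of the NADH-oxidising module, behaved alike, at 26.4, 31.2 and 33.2 CPM under Ago1 RNAi in dora clones, against 58.6, 64.2 and 73.6 under GFP RNAi. Its log2 fold change was -1.11 ± 0.12 in dora and -1.10 ± 0.12 in WT clones. ND-75, the large iron-sulfur subunit, fell less, to 98.0, 110.4 and 111 CPM under Ago1 RNAi in dora clones, against 143, 171 and 172 under GFP RNAi. That is a log2 fold change of -0.61 ± 0.14, and WT clones gave -0.61 ± 0.14 as well. ND-42, another accessory subunit, lay at -0.52 ± 0.12 in dora and -0.43 ± 0.12 in WT clones. Without the block, ND-30, ND-B17, ND-MWFE and the paralog ND-51L1, which stayed below 1 CPM, were called in neither genotype. With the block all of these but ND-51L1 were lower in both genotypes, so 32 of the 33 were. ND-B12 was called in dora clones (-0.91 ± 0.25) and, without the block, not in WT clones (-0.52 ± 0.25, edgeR adjusted p = 0.0921); with it the WT value was -0.52 (adjusted p = 0.000165).

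All 4 subunits of complex II were lower in dora clones and 3 in WT clones, and all 4 in both with the block. SdhA, the flavoprotein that oxidises succinate, was at 149.6, 172 and 203 CPM under Ago1 RNAi in dora clones, against 218, 248 and 331 under GFP RNAi. In WT clones it was at 151, 157 and 148 CPM under Ago1 RNAi, against 196, 239 and 207. The log2 fold changes were -0.60 ± 0.15 and -0.49 ± 0.15, the WT one with an edgeR adjusted p of 0.0166. In the fit without the block, that call was lost without WT Ago1 replicate 3 (edgeR adjusted p = 0.0539) or WT GFP replicate 2 (0.0647). SdhB, the iron-sulfur subunit, was at 80.5, 73.2 and 82.3 CPM under Ago1 RNAi in dora clones, against 117, 117 and 121. Its standard errors were the smallest of the 4, with log2 fold changes of -0.59 ± 0.08 in dora and -0.44 ± 0.08 in WT clones. The membrane anchor SdhD changed by -0.97 ± 0.12 in dora and -0.70 ± 0.12 in WT clones. The other anchor, SdhC, changed by -0.73 ± 0.23 in dora clones and by -0.48 ± 0.23 in WT clones, where it was not called (edgeR adjusted p = 0.0993). With the clone as a replicate block, SdhC in WT clones was called at -0.44 (edgeR adjusted p = 0.000726). The dora call of SdhC, in the fit without the block, was lost without Ago1 replicate 1 (adjusted p = 0.0730), Ago1 replicate 2 (0.0635) or GFP replicate 3 (0.0751), and without the filter on low counts (0.0513).

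In complex III, 3 of 7 tested genes were lower in each genotype, and 6 of 7 with the clone as a replicate block. UQCR-C2, a core subunit of the complex, was at 94.1, 103 and 105 CPM under Ago1 RNAi in dora clones, against 165, 225 and 226 under GFP RNAi. In WT clones it was at 80.8, 98.7 and 86.1 CPM, against 149, 181 and 198. Neither pair of ranges overlapped, and the log2 fold changes were -1.03 ± 0.14 and -0.99 ± 0.14 (edgeR adjusted p = 0.000106 and 0.000123). UQCR-C1, its partner in the matrix-facing core, changed by -0.74 ± 0.15 in dora and -0.71 ± 0.15 in WT clones. UQCR-Q changed by -0.76 ± 0.13 and -0.77 ± 0.13. The small subunits UQCR-11, UQCR-14 and UQCR-6.4 differed more between clones. Without the block they were called in neither genotype, and their log2 fold changes lay between -0.94 and -0.36. With the block all 3 were lower in both genotypes. UQCR-6.4, for one, was at -0.95 ± 0.11 in dora clones (edgeR adjusted p = 7.7e-06) and -0.65 ± 0.11 in WT clones (adjusted p = 0.000168). In clones 1 to 3 of the dora cells it was at 13.9, 17.6 and 23.2 CPM under Ago1 RNAi, against 27.5, 31.6 and 46.5 under GFP RNAi, so the Ago1 library was the lower in each clone. The paralog UQCR-11L was not called either and stayed at 1.25 CPM or less.

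Complex IV had 7 of 9 tested genes lower in dora and 6 in WT clones, and all 9 in both with the block. COX7A was at 96.9, 100.1 and 112 CPM under Ago1 RNAi in dora clones, against 159, 182 and 205 under GFP RNAi, and in WT clones at 83.7, 93.7 and 97.1 CPM, against 172, 157 and 171. Its log2 fold change was -0.82 ± 0.10 in dora and -0.87 ± 0.10 in WT clones (edgeR adjusted p = 6.61e-05 and 3.99e-05). COX5A changed by -0.64 ± 0.12 in both genotypes, and COX5B by -0.83 ± 0.18 in dora and -0.72 ± 0.18 in WT clones. COX4, a subunit known in mammals for its part in regulation by ATP, changed by -0.48 ± 0.17 in dora clones (edgeR adjusted p = 0.0312). In the fit without the block, that call was lost when any of 4 of the 6 dora libraries was left out. These were Ago1 replicates 1 and 2 and GFP replicates 2 and 3 (edgeR adjusted p 0.0585 to 0.114). The call was also lost without the filter on low counts (0.0540). COX4 in WT clones, at -0.35 ± 0.17, was not called (edgeR adjusted p = 0.0953), but was with the clone as a replicate block (-0.33, adjusted p = 0.00183). The paralog COX7AL was called lower in both genotypes from very few reads. It was at 0.0653, 0.220 and 0 CPM under Ago1 RNAi in dora clones, against 1.70, 0.131 and 0.617 under GFP RNAi. The Ago1 library was the lower in clones 1 and 3 and the higher in clone 2.

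In complex V, 9 of 11 tested genes were lower in each genotype, and 10 with the block. ATPsynE, a membrane-part subunit that overlaps no other gene, was at 64.3, 65.2 and 70.0 CPM under Ago1 RNAi in dora clones, against 122, 131 and 175 under GFP RNAi. In WT clones it was at 52.0, 68.4 and 60.2 CPM, against 133, 122 and 133. The log2 fold change was -1.10 ± 0.13 in dora and -1.11 ± 0.13 in WT clones. ATPsynO, a stalk subunit, changed by -0.84 ± 0.18 in dora and -0.72 ± 0.18 in WT clones. ATPsynbeta, the catalytic subunit, changed least among those called, to 869, 859.9 and 772 CPM under Ago1 RNAi in dora clones, against 1099, 1066 and 983 under GFP RNAi. Its log2 fold change was -0.33 ± 0.09 in dora clones and -0.27 ± 0.09 in WT clones. In the fit without the block, the WT call was lost without Ago1 replicate 1 (edgeR adjusted p = 0.0893) or GFP replicate 3 (0.0669). It was also lost without the filter on low counts (0.0933). ATPsyndelta, a subunit of the central stalk, went the other way, at 99.1, 107 and 116 CPM under Ago1 RNAi in dora clones, against 50.7, 62.4 and 97.8 under GFP RNAi. Every Ago1 library was above every GFP library, with a log2 fold change of 0.61 ± 0.23 (edgeR adjusted p = 0.0422) in dora clones. In WT clones it was at 83.9, 103 and 90.2 CPM, against 51.3, 83.4 and 63.6, a log2 fold change of 0.48 ± 0.23 that was not called (adjusted p = 0.0919), but was with the block (0.51 ± 0.14, edgeR adjusted p = 0.0105). Without the block, the dora call was lost without GFP replicate 1 or 2 or any 1 of the Ago1 libraries (edgeR adjusted p 0.0661 to 0.145), and without the filter on low counts (0.0761). The span of ATPsyndelta on X:10212970-10217393 (dm6) overlaps CG2962.

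**Figure D1:**
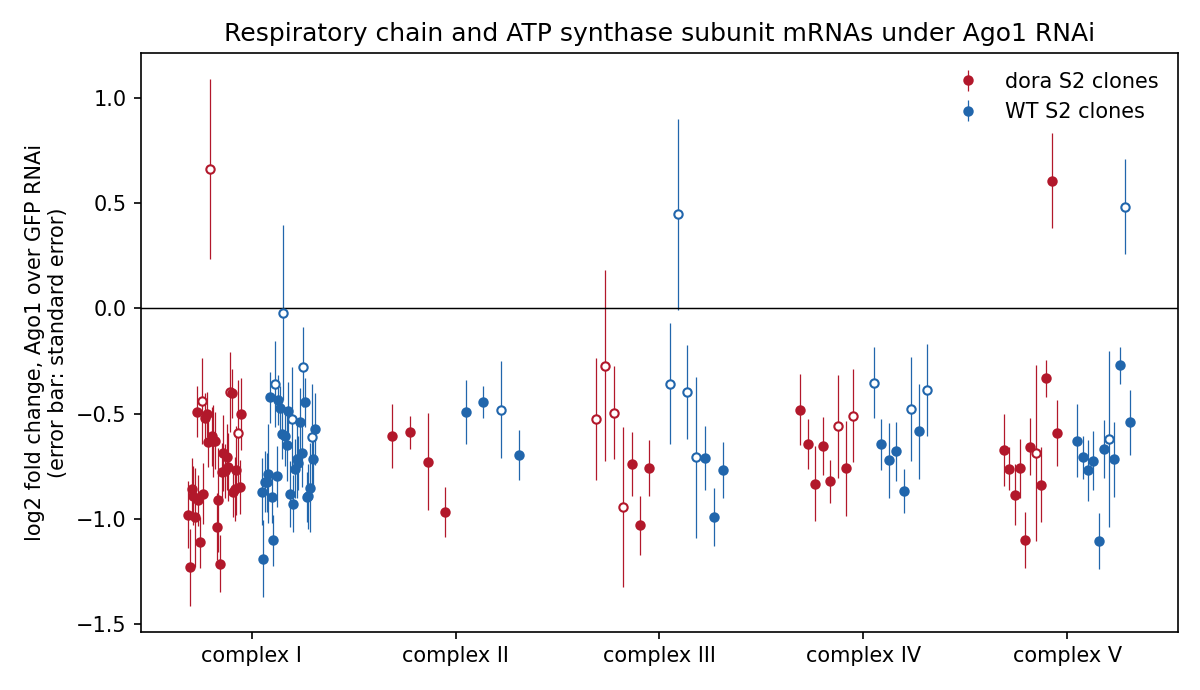
Log2 fold change under Ago1 RNAi over GFP RNAi (y axis, with SE bars) for each tested subunit gene, grouped by complex I to V (x axis), in dora clones (left within each complex) and WT clones (right). Filled circles are genes called at an adjusted p under 0.05 in the fit without the replicate block (52 lower and 1 higher in dora, 49 lower in WT), open circles are not called, and COX7AL is not drawn. Most points lie below 0; ATPsyndelta stands above it in both genotypes, and the paralogs ND-51L1 (dora) and UQCR-11L (WT) in 1 each.

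Summed over the 84 genes, the level was 5738, 6078 and 6207 CPM under Ago1 RNAi in dora clones 1 to 3, against 8498, 9450.3 and 10227 CPM under GFP RNAi. In WT clones the sum was 4756, 6074 and 5568 CPM under Ago1 RNAi, against 7096, 8682 and 8830.2 CPM. Complex II summed to 296, 314 and 359 CPM under Ago1 RNAi in dora clones, against 445, 486 and 588, and complex V to 2887, 2959 and 2843 CPM, against 4052, 4421 and 4515. Within each clone the Ago1 library was below the GFP library for the sum over all 84 genes. These sums are descriptions, without a test, and are led by the few most abundant genes.

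**Figure D2:**
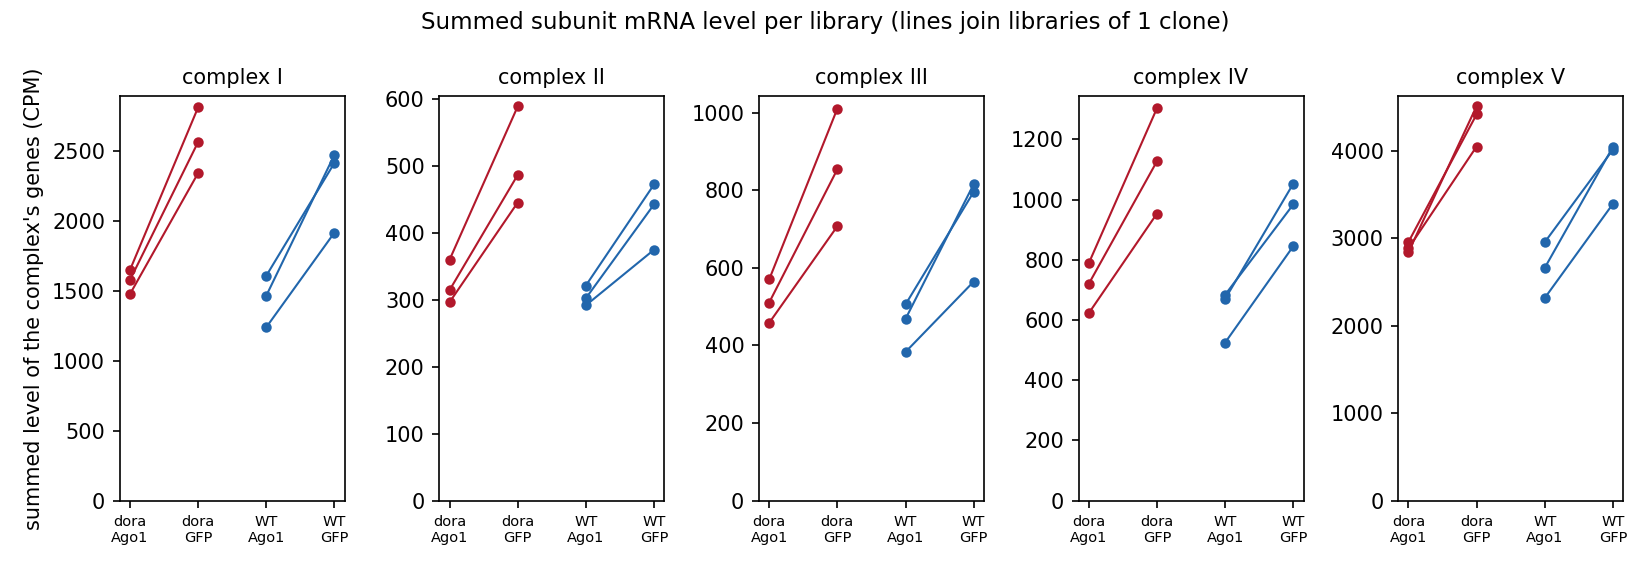
Summed level in CPM (y axis) of the genes of each complex in each library of the RNAi table. Points are libraries, Ago1 RNAi stands left of GFP RNAi within each genotype, and lines join the 2 libraries of 1 clone; complex V in dora clones runs from 2843 to 2959 CPM under Ago1 RNAi, against 4052 to 4515 CPM under GFP RNAi.

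Other genes of energy metabolism, in lists chosen with earlier results of these data known, were lower as well. All 12 glycolysis genes were lower in both genotypes, with median log2 fold changes of -1.28 in dora and -0.96 in WT clones. Of 70 mitochondrial ribosomal protein genes, 54 were lower in dora and 59 in WT clones, and of 12 genes of the TCA cycle 10 were lower in each. Of 6 respiratory chain and ATP synthase genes whose symbols fall outside the rule, 5 were lower in each, with Cyt-c1, the cytochrome c1 of complex III, at -1.001 in dora and -0.99 in WT clones. Genes that regulate mitochondrial DNA and biogenesis were mixed, with 3 of 8 higher and 2 lower in dora clones, and 2 higher and 3 lower in WT clones.

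Sums of cell type markers also differed between the knockdowns, though each sum was led by few genes. The 7 hemocyte-like markers of S2 cells summed to 6207, 8087 and 1681 CPM under Ago1 RNAi in dora clones, against 15562, 28078 and 4506 under GFP RNAi. In WT clones the sum was 1145, 9359.6 and 1583 CPM, against 2149, 19454 and 2650.4. Over all libraries of the RNAi table vkg reached 11689 and Col4a1 15949 CPM, and srp lay at 291 to 529. Hml and Pxn stayed at 50.4 CPM or less, and NimC1 and He at 0.317 or less. The 5 neuronal markers summed to 159.8 to 168 CPM under Ago1 RNAi in dora clones, against 87.5 to 95.8, and 4 maternal markers to 42.4 to 45.3 CPM, against 21.2 to 24.9. Of the neuronal markers, elav reached 212 and brp 56.4 CPM in the RNAi table, while nSyb, Syt1 and fne stayed at 0.300 or less. Of the maternal ones, gcl lay at 16.3 to 47.1 CPM, osk at 0.606 to 6.73 and pgc at 0.261 or less. In the RNAi table bcd, ftz, sna, Osi2, dj and Cp36, markers of embryo stages and gonads, were at 0. Other markers of these lists were not. Besides gcl and osk, the testis marker fzo lay at 1.32 to 3.03 CPM, and the late epidermis markers Cpr49Ac and Cpr67B reached 1.63 and 1.01. The part of these shifts in the subunit results was not tested. In bulk RNA, fewer cells of a type and less RNA per cell cannot be told apart.

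Between dora and WT S2 cells edgeR called no subunit mRNA in the fit without a replicate block. A block by replicate number, described below, called some under GFP RNAi, though these numbers are not shown to pair the libraries. Under GFP RNAi 0 of 64 genes were called between dora and WT clones by edgeR (1.18% of all genes; 4 at an unadjusted p under 0.05). In 7 of them every dora library was above every WT library (9.35% of all genes), with a median log2 fold change of 0.19. Under Ago1 RNAi 0 of 64 were called (0.356% of all genes, 1 unadjusted). The shares of all genes at the unadjusted threshold are not given, for these or later comparisons. The unadjusted counts are thus not shown to be particular to the subunits. In the clones without RNAi 0 of 61 were called (2.73% of all 7294 genes tested; 12 unadjusted), and DESeq2 called 2 higher. There, 49 of the 61 fold changes were positive, with a median log2 fold change of 0.13 (-0.0038 over all genes), and in 19 every dora library was above every WT library (14.1% of all genes). The sum over the 84 genes was 4368, 4235 and 4459.6 CPM in dora clones, against 3901, 3749.6 and 3933 CPM in WT clones. Complex IV summed to 494, 461 and 506 CPM in dora clones, against 411, 395 and 395 in WT clones, and all 8 of its tested genes had a positive fold change. COX7C was at 40.2, 45.4 and 55.0 CPM in dora clones, against 33.6, 33.0 and 36.0 in WT clones (log2 fold change 0.46 ± 0.13, edgeR adjusted p = 0.0984). COX5A was at 97.3, 95.2 and 86.5 CPM, against 72.9, 73.0 and 60.1 (0.44 ± 0.11, adjusted p = 0.0748), and ATPsynF at 57.6, 60.4 and 55.1 CPM, against 46.9, 42.8 and 41.2 (0.40 ± 0.10, adjusted p = 0.0684). None of these 3 passed, although their ranges did not overlap. Of the glycolysis list, 4 of 12 were higher in dora clones, among them Pfk, phosphofructokinase, at 0.75 ± 0.11 (edgeR adjusted p = 0.0230).

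In the trigger lines 0 of 62 subunit genes were called by edgeR in any of the 5 lines against the 2 WT libraries that all 5 share. Of all genes 0.0128% were called in ago1, 0.0256% in zfh1 and 0 in h, kah and wgn. The median log2 fold change was 0.24 in ago1, 0.06 in h, 0.10 in kah, 0.04 in wgn and 0.12 in zfh1. At an unadjusted p under 0.05 there were 14 genes in ago1, 2 in h, 1 in kah, 2 in wgn and 4 in zfh1, and DESeq2 called 1 gene lower in h. The shares of all genes at that unadjusted threshold, and the medians over all genes, are not given for these lines. The unadjusted counts and medians are thus not shown to be particular to the subunits.

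In WT embryos the subunits followed different courses up to 8-12 h, and those called after that were higher. The shares of all genes called lower there are not given, so this direction is not shown to be particular to the subunits. The longest series is that of the CR43432 table, with 65 subunit genes tested. From 0-2 to 2-4 h, 13 were called higher and 9 lower (16.4% and 19.2% of 11457 genes; median log2 fold change 0.24), and from 2-4 to 8-12 h, 8 higher and 27 lower (30.9% and 28.4%; median -0.44). From 8-12 to 12-16 h, 15 were higher and 0 lower (22.7% of genes higher; median 0.39), and from 12-16 to the single 16-20 h library, 19 higher and 0 lower (13.4%; median 0.60). That library is assumed to vary like the other groups. The share called higher from 8-12 to 12-16 h was near that of all genes. The split between 0-2 and 2-4 h depended on the scaling. With RLE scaling, which moved the median of all genes in this comparison to 0.22, 29 subunits were higher and 7 lower. Without the first 2-4 h library 13 genes were called, 5 higher and 8 lower.

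SdhA dipped at 2-4 h. It was at 172 and 188 CPM at 0-2 h, 65.0 and 73.1 at 2-4 h, 141 and 124 at 8-12 h, 226 and 243 at 12-16 h and 328 at 16-20 h. The log2 changes were -1.38 ± 0.16 (edgeR adjusted p = 3.96e-05), 0.94 ± 0.16 and 0.82 ± 0.15, and the last step of 0.48 was not called. UQCR-C2 was at 87.3 and 56.9 CPM at 0-2 h, 32.0 and 17.3 at 2-4 h and 86.1 and 76.5 at 8-12 h. It fell by 1.55 ± 0.28 and then rose by 1.72 ± 0.28 on the log2 scale. COX7A, at 83.5 and 83.7, then 45.2 and 34.5, then 96.8 and 91.5 CPM, and UQCR-6.4, at 25.2 and 15.8, then 6.26 and 3.52, then 14.2 and 18.8 CPM, had the same shape. Both steps were called for these 4 and for ND-51, a core subunit of the NADH-oxidising module, ND-18 and ND-B14.5A; the steps share the 2-4 h libraries.

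Other genes took the opposite course, higher at 2-4 h and lower at 8-12 h. ND-42 was at 74.4 and 93.0 CPM at 0-2 h, 159 and 133 at 2-4 h and 72.5 and 79.7 at 8-12 h, log2 changes of 0.80 ± 0.17 and -0.94 ± 0.17. ATPsyndelta was at 111 and 105 CPM, then 199.6 and 157, then 89.2 and 86.5, log2 changes of 0.72 ± 0.17 and -1.02 ± 0.17. COX4 changed by 0.48 ± 0.16 and -0.77 ± 0.16, but its first step was not called without the first 2-4 h library. Complex V was lowest at 8-12 h as a group, with 8 of 12 tested genes lower than at 2-4 h. The mean sums of complexes I, III and IV were lowest at that age too, at 1391, 409 and 670 CPM. They were 1775, 442 and 833 CPM at 2-4 h, and 1429, 460 and 716 CPM at 0-2 h. ATPsynCF6, coupling factor 6 of the stalk that joins the membrane and catalytic parts (3R:23355220-23356064, dm6), was at 111 and 112 CPM at 2-4 h and 36.3 and 42.9 at 8-12 h, a log2 change of -1.49 ± 0.22. ATPsynO changed by -1.29 ± 0.18 and ATPsynD by -1.11 ± 0.16 over the same step. Complex II summed to 316 and 305 CPM at 0-2 h, 195 and 213 at 2-4 h, 265 and 225 at 8-12 h, 381 and 388 at 12-16 h and 560.2 at 16-20 h. SdhA and SdhC had their lowest means at 2-4 h, at 69.1 and 17.7 CPM. SdhB and SdhD were instead lowest at 8-12 h. Their means at 0-2, 2-4 and 8-12 h were 73.3, 81.2 and 59.8 CPM for SdhB, and 31.1, 35.7 and 23.2 CPM for SdhD. Complex V summed to 3641 and 3322, then 3354 and 3353, then 2470.2 and 2435, then 3853 and 3694, and then 6320.4 CPM.

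**Figure D3:**
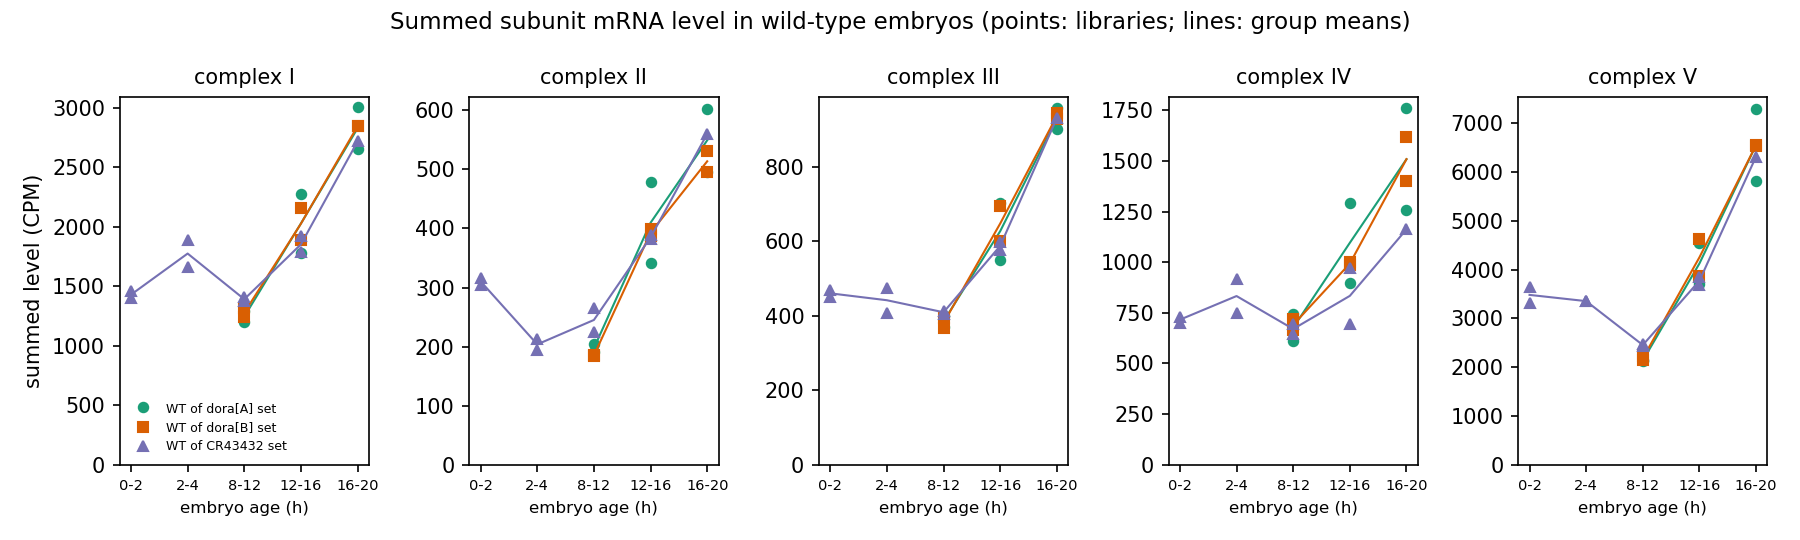
Summed level in CPM (y axis) of the genes of each complex in WT embryos by age in hours (x axis). Points are libraries and lines join group means of each of the 3 embryo tables. In the CR43432 table complex II is lowest at 2-4 h (195 and 213 CPM), a course of SdhA and SdhC but not of SdhB or SdhD. Complex V is lowest at 8-12 h (2470.2 and 2435 CPM), as are the group means of complexes I, III and IV.

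Between 8-12 and 12-16 h the WT embryos of the other tables gave higher counts. In the WT of the dora[A] table, 27 of 65 genes were higher and 0 lower (22.6% of genes higher; median log2 change 0.82), and in the WT of the dora[B] table, 23 of 66 (22.7%; median 0.70). SdhA, UQCR-C1, ND-39, ND-B22, ATPsynbeta, ATPsynC (the proton-carrying ring subunit) and ATPsynCF6 were called higher in all 3 tables, 7 of the 62 subunits tested in each (17.7% of all genes tested in each). ATPsynCF6 was at 44.1 and 35.3 CPM at 8-12 h and 95.7 and 123 at 12-16 h in the dora[A] table's WT, and at 37.3 and 36.0, then 121 and 90.7 CPM, in that of dora[B]. From 12-16 to 16-20 h, 3 genes were higher in the dora[A] table's WT (ND-13B, ND-49 and ATPsynbeta, median 0.48). That share was below the 14.9% of all genes. In the dora[B] table's WT 0 were higher, against 7.72% of all genes (median 0.55). These counts moved with single libraries. Without 1 of the 4 libraries the count from 8-12 to 12-16 h was 6, 7, 7 and 9 in the CR43432 table. In the dora[A] table it was 11 without 8-12 h replicate 1, 7 without 8-12 h replicate 2 and 4 without 12-16 h replicate 2. In the dora[B] table it was 11 without either 8-12 h library and 4 without 12-16 h replicate 1. For the last step, the CR43432 table gave 4 without 12-16 h replicate 1 and 2 without replicate 2. The dora[A] table gave 1 without either replicate 2 and 6 without 16-20 h replicate 1.

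Over the same stages the 7 muscle markers of the CR43432 table's WT summed to 1033 and 1528 CPM at 0-2 h, 1251 and 1433 at 2-4 h, 3154 and 4925 at 8-12 h, 28996 and 31387 at 12-16 h and 65644 at 16-20 h. The 4 maternal markers fell in sum from the youngest embryos on, at 2379.7 and 1835 CPM, then 394 and 517, then 133 and 125. Glycolysis genes changed more than the subunits, with 10 of 12 lower from 0-2 to 2-4 h (median -1.89) and 11 of 12 higher from 8-12 to 12-16 h in this table (median 2.02). The part of tissue makeup in the subunit changes was not tested.

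In dora[A] embryos 0 of 65 subunit genes were called by edgeR, over the mean of the 3 ages or at 12-16 or 16-20 h (0 of all genes) or at 8-12 h (0.00897%), with 2 at an unadjusted p under 0.05 at 12-16 h and 0 otherwise. The sum over the 84 genes was 4511 and 5252 CPM in dora[A] embryos at 8-12 h, against 4486 and 4789 in WT. It was 6236 and 7847 CPM at 12-16 h, against 7270.1 and 9303, and 9352 and 11953 CPM at 16-20 h, against 11128 and 13621. The ranges overlapped at every age, while within each replicate number dora[A] was below its WT at 12-16 and 16-20 h. The median log2 fold changes were 0.10, -0.34 and -0.24 in the order of the ages, against 0.05, 0.01 and -0.06 over all genes.

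In dora[B] embryos, over the mean of the 3 ages, 30 of 66 subunit genes were lower and 0 higher than in WT. Of all genes 24.7% were lower and 17.8% higher. The median log2 fold change of the subunits was -0.45, against -0.38 over all genes. By the median the list thus lay close to the table as a whole, though a larger share of it was called lower. Lower genes numbered 14 of 33 in complex I, 2 of 4 in II, 4 of 7 in III, 5 of 10 in IV and 5 of 12 in V. The count rested on single libraries, left out 1 at a time. Without dora[B] replicate 1 of 8-12, 12-16 or 16-20 h it was 6, 12 or 9 called genes, and without dora[B] replicate 2 of those ages 4, 5 or 26. Without WT replicate 1 of those ages it was 6, 17 or 8, and without WT replicate 2 it was 5, 8 or 4. Over 8-12 and 12-16 h alone it was 6, with 1 higher and 5 lower.

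The ages differed. At 8-12 h 2 genes were called higher and 0 lower in dora[B] embryos (6.68% of genes higher). ND-42 was at 98.3 and 97.3 CPM in dora[B] embryos, against 55.2 and 47.2 in WT (log2 fold change 0.93 ± 0.21, edgeR adjusted p = 0.0217). ATPsynCF6 was at 65.4 and 85.2 CPM, against 37.3 and 36.0 (1.04 ± 0.26, adjusted p = 0.0327). Both were called only with all 4 libraries of that age, and neither with RLE scaling. At 12-16 h 14 genes were lower and 0 higher (12.7% of genes lower; median -0.69, against -0.43 over all genes), 3 of them among the 4 Sdh genes. RLE scaling moved the median of all genes to -0.19 and that of the subunits to -0.44, with 1 subunit called. SdhA was at 123 and 98.2 CPM in dora[B] embryos, against 218 and 199.5 in WT (-0.92 ± 0.26, adjusted p = 0.0253). SdhC was at 34.5 and 21.6 CPM, against 58.1 and 58.4 (-1.05 ± 0.29), and SdhD at 15.8 and 19.2 CPM, against 36.9 and 33.3 (-1.003 ± 0.30). ND-24 was at 29.6 and 23.0 CPM, against 62.8 and 59.6 (-1.22 ± 0.30), UQCR-C2 at 75.2 and 50.3 CPM, against 142 and 114 (-1.03 ± 0.30), and ATPsyngamma, the rotating shaft of ATP synthase, at 89.9 and 75.9 CPM, against 189 and 158 (-1.06 ± 0.32). In each of these both dora[B] libraries were below both WT libraries. The genes were called from the same libraries, so this order adds nothing to the calls. Without dora[B] replicate 1 of that age 2 subunits were called (1 higher, 1 lower), and without each of the other 3 libraries 0.

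At 16-20 h 5 genes were lower and 0 higher (5.44% of genes lower; median -0.68, against -0.48 over all genes). COX4 was at 85.2 and 141 CPM in dora[B] embryos, against 201 and 215 in WT (-0.88 ± 0.24, edgeR adjusted p = 0.0333). COX7C was at 49.7 and 82.5 CPM, against 130.3 and 126 (-0.96 ± 0.26), ND-B15 at 18.6 and 20.8 CPM, against 42.0 and 39.0 (-1.04 ± 0.26), and UQCR-6.4 at 21.6 and 28.0 CPM, against 59.1 and 47.8 (-1.11 ± 0.34). ATPsynC was at 1165 and 1818 CPM, against 2768 and 2709.8 (-0.88 ± 0.23). Replicate 1 of the dora[B] embryos was the lower in all 5. The sum over the 84 genes was 5622 and 9255 CPM in dora[B] embryos at 16-20 h, against 12216 and 12504 in WT. It was 5440.2 and 4707 CPM at 12-16 h, against 8873 and 7752, and 4645 and 4881 CPM at 8-12 h, against 4779 and 4649. The shares of all genes under the refits that follow are not given, so their counts are not shown to be particular to the subunits. With the replicate number as a block, the count at 16-20 h was 16. Without dora[B] replicate 2 it was 13, and without any other library of that age 0.

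**Figure D4:**
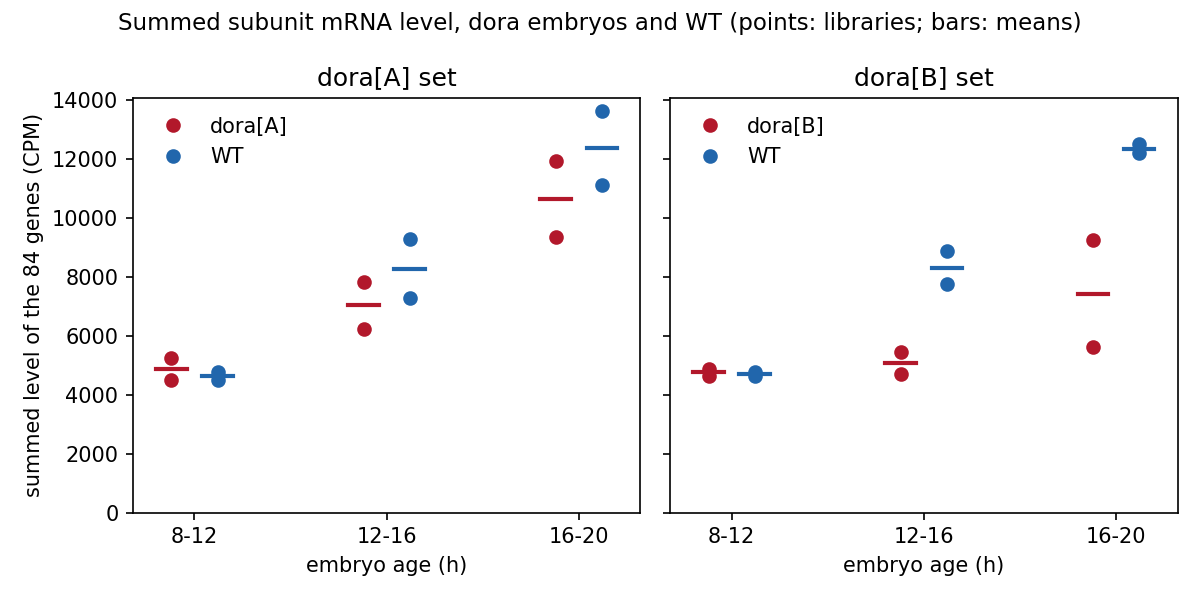
Summed level of the 84 genes in CPM (y axis) by embryo age in hours (x axis) in the dora[A] table (left panel) and the dora[B] table (right panel). Points are libraries and bars group means, with the mutant left of its WT at each age; dora[B] embryos lie below WT at 12-16 h and 16-20 h, and the 2 libraries at 16-20 h stand at 5622 and 9255 CPM.

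Tested against the effect at 8-12 h, the dora[B] effect at 16-20 h differed for 1 of 66 genes, a share near that of all genes (1.61%). ATPsynCF6, higher than WT at 8-12 h, was at 79.8 and 109 CPM in dora[B] embryos at 16-20 h, against 157 and 174 in WT, and the difference of the log2 fold changes was -1.84 ± 0.36 (edgeR adjusted p = 0.0275). It was not called with RLE scaling (-1.58, adjusted p = 0.0888), nor without any 1 of 7 of the 8 libraries; without dora[B] 16-20 h replicate 2 it was called. At 12-16 h 0 genes differed in effect from 8-12 h (2.04%), and in dora[A] embryos 0 at either age (0 of all genes).

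Markers moved in the dora[B] embryos too. The 7 muscle markers summed to 3881 and 3162 CPM in dora[B] embryos at 8-12 h, against 2578 and 3321 in WT. They summed to 12853 and 8837 CPM at 12-16 h, against 31813 and 25320 in WT, and to 22925 and 43866 CPM at 16-20 h, against 63528 and 64737. The 5 neuronal markers summed to 1611 and 1491 CPM at 8-12 h, against 2270.2 and 2359.8, to 1853 and 1195 CPM at 12-16 h, against 2753 and 2882, and to 1525 and 2026 CPM at 16-20 h, against 3603 and 3383. Over the mean of the ages 6 of 7 muscle and 5 of 5 neuronal markers were lower, and 2 of 4 maternal markers were higher and 1 lower. Of the glycolysis list 9 of 12 were lower (median -0.57), and of the mitochondrial ribosomal proteins 24 of 70. The part of these shifts in the subunit results was not tested.

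**Figure D5:**
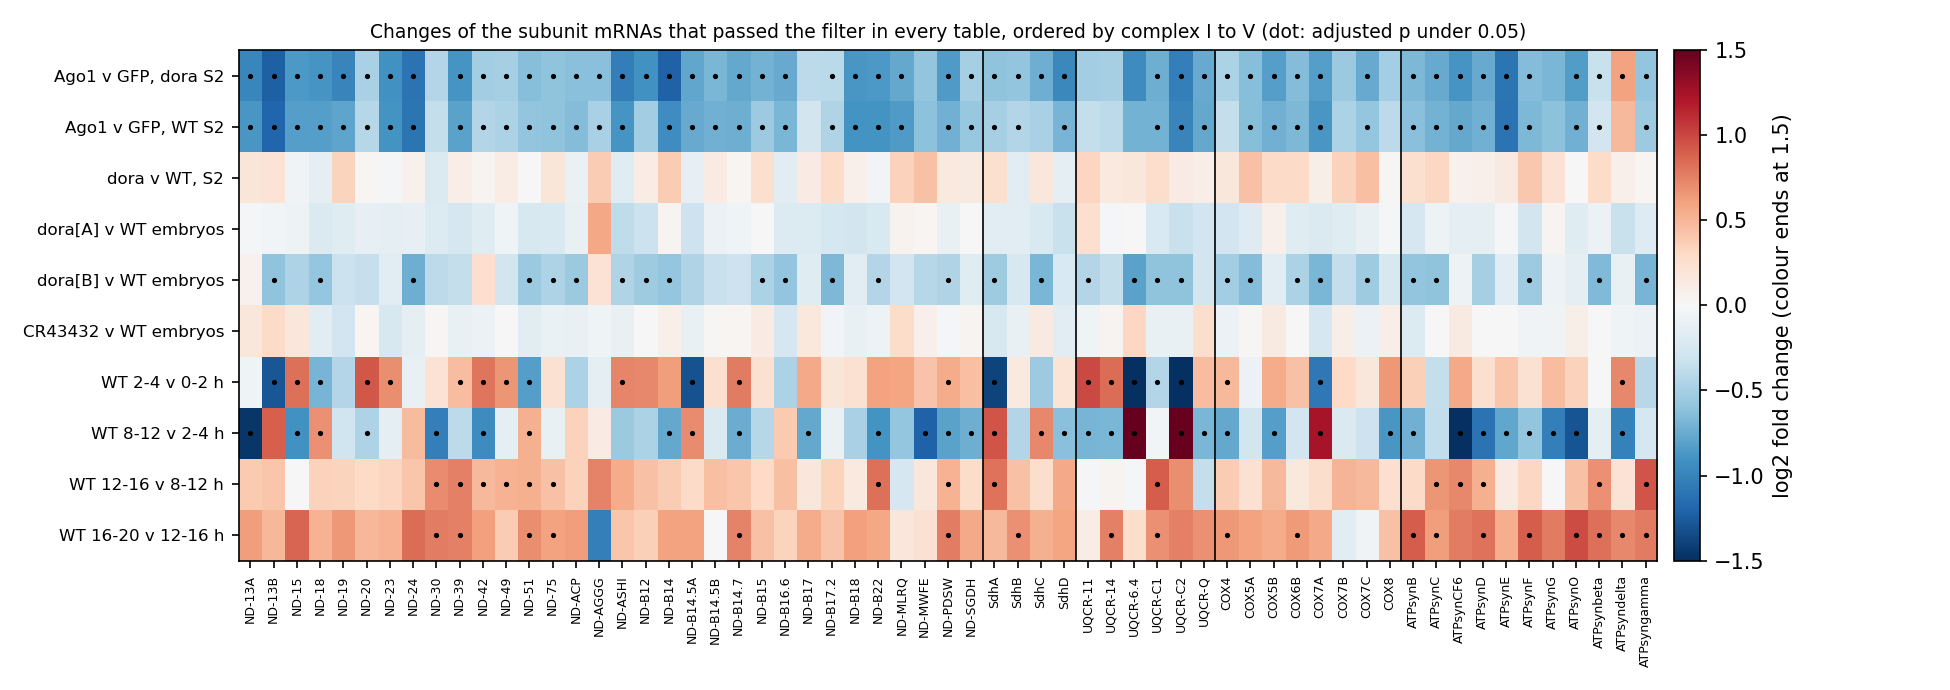
Log2 fold change (colour, ending at 1.5 in either direction) of the 61 subunit genes that passed the filter in all 6 tables, ordered by complex I to V, in each comparison. Comparisons are rows and genes are columns, and a dot marks an adjusted p under 0.05. The Ago1 RNAi rows are lower for nearly all genes. The steps between 0-2, 2-4 and 8-12 h in WT embryos of the CR43432 table are mixed.

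In CR43432 embryos 0 of 65 subunit genes were called over the mean of 8-12 and 12-16 h by edgeR (0.0698% of genes; 1 at an unadjusted p under 0.05). The median log2 fold change was -0.01, against -0.02 over all genes. The sum over the 84 genes was 4373 and 5077 CPM in CR43432 embryos at 8-12 h, against 5244 and 5091 in WT, and 7880.2 and 7742 CPM at 12-16 h, against 7725 and 7139. The single libraries at 16-20 h stood at 11219 CPM in CR43432 embryos and 11691 CPM in WT, without a test.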

How the data were processed

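Poly(A) RNA was measured in 68 libraries of S2 cells and embryos. The authors deposited whole-number read counts per gene, not normalized, in 6 tables. Reads were aligned to dm6 with STAR 2.4 and counted with HTSeq, per the submitters' processing notes. Per the labels' protocols, libraries were made with a directional kit from poly(A) RNA and read as 50-nt single ends, and those of the RNAi table with mRNA capture and 50-nt paired ends. The tables were made separately, so tests stay within a table. The 6 small RNA tables were not used.

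Counts were tested with edgeR 4.0.16 in R 4.3.3 (TMM scaling, filterByExpr with a minimum count of 10, robust quasi-likelihood fit with 1 coefficient per group), with Benjamini-Hochberg adjustment over all genes that passed and a threshold of 0.05. SE is the log2 fold change divided by the root of its F value. Depth was 8.96 M to 35.5 M counted reads, which limits genes under about 1 CPM. The procedure was tested on simulated data. Of 2-fold changes put in, it called 71% for Ago1 RNAi in WT clones and 70% for dora S2 clones. It called 39% for the ago1 line, 52% for dora[A], 44% for dora[B] and 54% for CR43432 embryos. Changes below 2-fold were not simulated, so a count of 0 does not show that smaller changes are absent. Replicates are clones or fly lines, per the series' design text, though the dora[A] and dora[B] titles give only replicate numbers. The p-values measure the spread between these samples. Marker and pathway lists, and the subunit genes, were chosen with earlier results of these data known. Gene spans came from RefSeq Release 6 plus ISO1 MT, the same assembly as dm6.

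The genes named are 10 fixed ones (ND-75, ND-42, SdhA, SdhB, UQCR-C1, UQCR-C2, COX4, COX5A, ATPsynbeta, ATPsynO), the 4 Sdh genes, up to 3 called genes per complex and direction with the largest change and a mean of at least 5 CPM in the higher group, all called genes where there were 5 or fewer, genes called in opposite directions within a table, and paralogs that passed the filter. COX7C and ATPsynF in S2 clones, and other genes outside this rule, were chosen after their values were seen.

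In the RNAi table the 2 libraries of a clone deviated together (correlations of 0.52 to 0.69 between same-numbered libraries), so the clone pairs them. Alternatives were RLE scaling, no filter, DESeq2 1.42.0, a replicate block, each library left out and, chosen after seeing the data, other subsets of embryo ages and libraries. The test of dora[A] and dora[B] effects between ages was also chosen after seeing the data. No 2 libraries of a group were alike within sampling noise.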

Additional observations from a re-analysis of the deposited data

Results flagged for a closer look

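ATPsynCF6, coupling factor 6 of ATP synthase, is listed because its dora[B] effect differed between ages in a test of the difference itself. The log2 fold change of dora[B] over WT embryos at 16-20 h minus that at 8-12 h was -1.84 (edgeR adjusted p = 0.0275). It was the only one of 66 subunits called there, against 1.61% of all genes, a share near its own. The call was lost with RLE scaling (-1.58, adjusted p = 0.0888) and without any 1 of 7 of the 8 libraries. At 8-12 h both dora[B] libraries, at 65.4 and 85.2 CPM, were above both WT libraries, at 37.3 and 36.0 CPM. At 16-20 h both dora[B] libraries, at 79.8 and 109 CPM, were below both WT libraries, at 157 and 174 CPM. Within dora[B] embryos the level at the later age was thus near that at the earlier one, while WT embryos were higher at the later age. The muscle markers, which rose with age in WT embryos, were lower in dora[B] than in WT embryos at 16-20 h, and their part in the difference was not tested.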

How the results depend on the processing

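The counts of lower subunits under Ago1 RNAi kept within 1.5 times their value under every alternative run, and leaving out 1 library gave 46 to 56 called genes in dora and 42 to 60 in WT clones. Embryo counts depended more on the settings. The shares of all genes called in embryos under these settings are not given here. With RLE scaling, dora[B] against WT gave 0 genes at 8-12 h, 1 at 12-16 h and 2 at 16-20 h, and 0 for the difference between 16-20 and 8-12 h. The WT steps from 12-16 to 16-20 h then gave 7 in the dora[A] table, 6 in the dora[B] table and 32 in the CR43432 table, where the 12-16 h step gave 33 and the 2-4 h step 36. DESeq2 gave 2 between dora and WT clones, 1 in the h line, 4 for dora[B] at 12-16 h, 2 for the difference between ages, 10, 17 and 36 for the same 3 WT steps to 16-20 h, 33 for the 12-16 h step and 36 for the 2-4 h step. Without the filter, dora[B] gave 10 (1 higher, 9 lower) over the mean of the ages, 1 at 12-16 h, 0 at 16-20 h and 2 for the difference, its WT step to 16-20 h gave 1, and the 2-4 h step 35 (28 higher, 7 lower). The mean over 8-12 and 12-16 h alone gave 6 for dora[B], a subset chosen after seeing the data. With the clone as a block, 62 genes were called under Ago1 RNAi in each genotype. The replicate block gave 5 for dora against WT cells under GFP RNAi, 16 for dora[B] at 16-20 h and 2 for the difference between ages. It moved no other count by over 1.5 times, and the numbers of dora and WT S2 libraries are not shown to pair them (correlations of -0.26 to 0.24). In embryos, correlations were -0.06 to 0.38. Of the trigger lines the block could be fitted for kah alone, with 0 called, since ago1, h and zfh1 share only 1 replicate number with WT and wgn none.

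Leaving out 1 library gave 4 to 26 for the dora[B] mean, 0 at 8-12 h, 0 to 2 at 12-16 h, 0 to 13 at 16-20 h and 0 to 3 for the difference. WT steps gave 13 to 33 (2-4 h), 24 to 26 (8-12 h), 6 to 9 (12-16 h) and 2 to 4 (16-20 h) in the CR43432 table. They gave 4 to 29 and 1 to 6 in the dora[A] table, and 4 to 17 and 0 in the dora[B] table. The comparisons refitted in this way that had a count of 0 stayed at 0. Sign changes were counted for the named genes alone, and only where the gene was called in the main fit or the alternative. By that count only UQCR-C1 changed sign, from 0-2 to 2-4 h, at -0.45 with all libraries and 0.072 without 0-2 h replicate 2. Sign changes of genes called in neither fit were not counted. Leaving out 1 library there gave -0.55 to 0.072. The causes were not tested. Depth limits the paralogs, most of which had too few reads to test.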
